A study of Mus musculus with 12 samples.

Results

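The 3 Aurora kinases (Aurka, Aurkb and Aurkc), the other subunits of the chromosomal passenger complex (Incenp, Birc5 and Cdca8), 2 Polo-like kinases (Plk1 and Plk4) and the Aurora-A spindle partners Tpx2 and Tacc3 were followed in mouse oocytes across the pubertal transition. These 10 genes were chosen by symbol from the 24562 genes counted, with earlier results of these data known. All 10 were among the 13943 genes with enough reads to be tested. Oocytes came from antral follicles of CD-1 mice that received no gonadotropins, and each sample was a pool of 18 to 45 oocytes, so that differences between single oocytes could not be seen. The 4 cohorts were postnatal day (PND) 13, PND 16 small and PND 16 large, which separated lighter from heavier mice of 1 age, and PND 40, with n = 3 pools each. The study treated PND 16 large and PND 40 oocytes as meiotically competent, able to resume meiosis and go on to metaphase II, and PND 13 and PND 16 small oocytes as non-competent. Competence was scored after maturation in vitro and not in the pools sequenced, and the paper describes PND 16 large oocytes as of suboptimal quality. For the weight groups at PND 16, the paper left its competence data unshown because few animals were used. No cohort carried a genetic change, and between cohorts of unequal age, age and body growth cannot be told apart.

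A mouse oocyte has no centrioles when it divides, and its spindle is assembled from acentriolar microtubule organizing centers and from microtubules nucleated around the chromosomes. Aurora-A, activated by Tpx2, and Plk1 act at the organizing centers and spindle poles, and Tacc3 is an Aurora-A substrate that stabilizes spindle microtubules. In the chromosomal passenger complex, Incenp is the scaffold that binds and activates Aurora-B or Aurora-C, while survivin (Birc5) and borealin (Cdca8) place the kinase at chromosomes and centromeres, where it corrects faulty kinetochore attachments. Aurora-C is largely a kinase of germ cells, and fully grown oocytes store much of the mRNA for these proteins before meiosis resumes.

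The promoters of Aurka and Plk1 held the same 6 letters, TTTGAA, just after the start annotated by RefSeq, and they are shown for that reason. Both genes encode kinases of the spindle poles. Aurka was among the 3 genes whose competent and non-competent pools did not overlap in expression, and Plk1 was not. Birc5, another of these 3 genes, held no TTTGAA in its window. TTTGAA is known as the core of the CHR element, found in promoters of many genes of mitosis. The sequences are from RefSeq (GRCm38.p6), each written 5′ to 3′ on the strand of the gene, at chr2:172370521-172370550 (minus strand) for Aurka and chr7:122159453-122159482 (plus strand) for Plk1, with the 6 letters in capitals.
Aurka: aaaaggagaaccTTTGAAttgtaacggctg
Plk1: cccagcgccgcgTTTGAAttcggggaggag
Counted from the RefSeq start, the first capital lay at base 33 in Aurka and at base 31 in Plk1. The GENCODE start, from which the gene coordinates given with the levels were taken, lay 35 bases further downstream in Aurka and 4 in Plk1, so that the 6 letters began 3 bases before that start and ran across it in Aurka, and began at base 27 in Plk1. Windows of 250 bases before to 50 bases after the RefSeq start were used for 6 of the 10 genes (Aurka, Aurkc, Birc5, Plk1, Plk4 and Tacc3). On the strand of the gene and within the 50 bases after the start, TTTGAA was present in 2 of these 6 windows and in 1.27% of all 32851 windows. Anywhere in the window and on either strand (TTCAAA on the other strand), it was present in 2 of 6 windows and in 17.9% of all windows. The narrower stretch was chosen after the positions had been seen, so that these shares are a description.

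Both promoters also held CCAAT, the letters of the CCAAT box, within 90 bases before the start. These stretches are at chr2:172370571-172370660 (minus strand) for Aurka and chr7:122159345-122159434 (plus strand) for Plk1, with the 5 letters in capitals.
Aurka: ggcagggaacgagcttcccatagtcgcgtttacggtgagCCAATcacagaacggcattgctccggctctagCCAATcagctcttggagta
Plk1: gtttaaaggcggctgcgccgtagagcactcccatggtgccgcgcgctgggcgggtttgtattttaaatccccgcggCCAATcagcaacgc
Aurka carried 2 copies and Plk1 carried 1. On either strand (ATTGG on the other strand) before the start, CCAAT was present in 2 of the 6 windows and in 33.8% of all windows, and over the whole window in 3 of 6 (Aurkc was the addition) and in 37.4%. CCAAT before the start and TTTGAA after it were both present in 2 of the 6 windows and in 0.49% of all windows. As this combination uses the stretch chosen after the positions had been seen, its shares are also a description. The motifs do not overlap each other, and a match of letters is not evidence that a factor was bound.

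The total count per pool was 17671193 to 27418358. Expression is given as CPM (reads of a gene per 1000000 reads of its pool, with pools put on a common scale by TMM factors) as mean ± SD over n = 3 pools. Differences were tested with edgeR's quasi-likelihood test, and a gene passed the test where its p, adjusted by the procedure of Benjamini and Hochberg for all 13943 genes, was no higher than 0.05. All 12 oocyte markers were detected in every pool, with summed levels of 15707 to 20484 CPM. The summed level of 14 granulosa cell markers was 135 to 672 CPM, with at most 1 of the 14 (Gatm or Slc38a3) at 0 in any pool, and was highest in PND 16 small replicate 2 (672 CPM) and in PND 13 replicates 3 (622 CPM) and 1 (543 CPM). In all other pools it was at most 269 CPM, and in the competent pools it was 181 to 228 CPM, so that the granulosa signal was unevenly spread over the non-competent pools. Of the 14 markers, 11 were lower and 3 higher in competent than in non-competent oocytes, with a median log2 fold change of -1.28. Between PND 40 and PND 13, 12 were lower and 2 higher at PND 40, with a median of -2.08. Summed levels were 6.65 to 35.8 CPM for theca, stroma and blood cell markers and 1931 to 2313 CPM for genes of dividing cells, which include genes that oocytes store. In such bulk libraries fewer cells of a type and less RNA per cell cannot be told apart.

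Aurka (chr2:172356190-172370535, minus strand of GRCm38), the spindle pole kinase, was the gene of the set with the largest fold change in competent oocytes. Its level was 166, 186 and 168 CPM in the PND 13 pools and 169, 200.2 and 168 CPM in the PND 16 small pools. It was 235, 250.3 and 230 CPM in the PND 16 large pools and 280.1, 274 and 277 CPM in the PND 40 pools. All 6 competent pools lay above all 6 non-competent pools, and the PND 40 pools lay above those of PND 16 large. The mean rose from 173 ± 11.1 CPM at PND 13 to 277 ± 2.93 CPM at PND 40, a log2 fold change of 0.68 ± 0.0777 (SE) or 1.60-fold (edgeR quasi-likelihood test, adjusted p = 5.85e-05). Relative to PND 16 small (179 ± 18.3 CPM), PND 40 was higher by 0.63 on the log2 scale, or 1.55-fold (adjusted p = 0.000129). PND 16 large (239 ± 10.6 CPM) was higher than PND 13 by 0.46 on the log2 scale (adjusted p = 0.00131) and higher than PND 16 small by 0.41 (adjusted p = 0.00554). These comparisons share cohorts and are not independent of each other. The step from PND 16 large to PND 40 was 0.22 on the log2 scale, with an approximate 95% interval of 0.064 to 0.37 (adjusted p = 0.115).

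Aurkb (chr11:69045647-69051664, plus strand) and Aurkc (chr7:6995300-7003091, plus strand), the catalytic subunits of the passenger complex, were present at far lower levels. Aurkb was at 13.2, 18.6 and 14.9 CPM in the PND 13 pools, at 18.1, 14.9 and 14.8 CPM in PND 16 small and at 13.95, 14.6 and 15.8 CPM in PND 16 large. At PND 40 it was at 19.8, 20.1 and 19.3 CPM, above every pool of the other cohorts. The PND 40 vs. PND 13 difference of Aurkb was 0.34 on the log2 scale with an interval of 0.0545 to 0.63 (adjusted p = 0.0891), and that between PND 40 and PND 16 large was 0.42 with an interval of 0.13 to 0.70 (adjusted p = 0.107). Competent vs. non-competent oocytes gave 0.13, with an interval of -0.12 to 0.38 (adjusted p = 0.467).

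Aurkc was at 7.59, 5.55 and 9.01 CPM in the PND 13 pools and at 5.39, 9.39 and 8.01 CPM in the PND 16 small pools. It was at 11.5, 10.2 and 8.92 CPM in PND 16 large and at 11.4, 10.95 and 11.2 CPM at PND 40. The competent pools were higher except for 1 PND 16 large pool, which lay within the non-competent range. Competent oocytes were higher by 0.52 on the log2 scale (SE 0.159, adjusted p = 0.0235), whereas PND 40 vs. PND 13 gave 0.60 with an interval of 0.16 to 1.04 (adjusted p = 0.0551). Aurkc is also the gene of the set with the least certain counts, since 54.8% of the 50-base stretches of its annotated transcripts (914 of 1667) were shared with transcripts of 10 other genes. Aurka and Aurkb shared none. How reads with several matches were counted is not given in the sources used here.

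**Figure D1:**
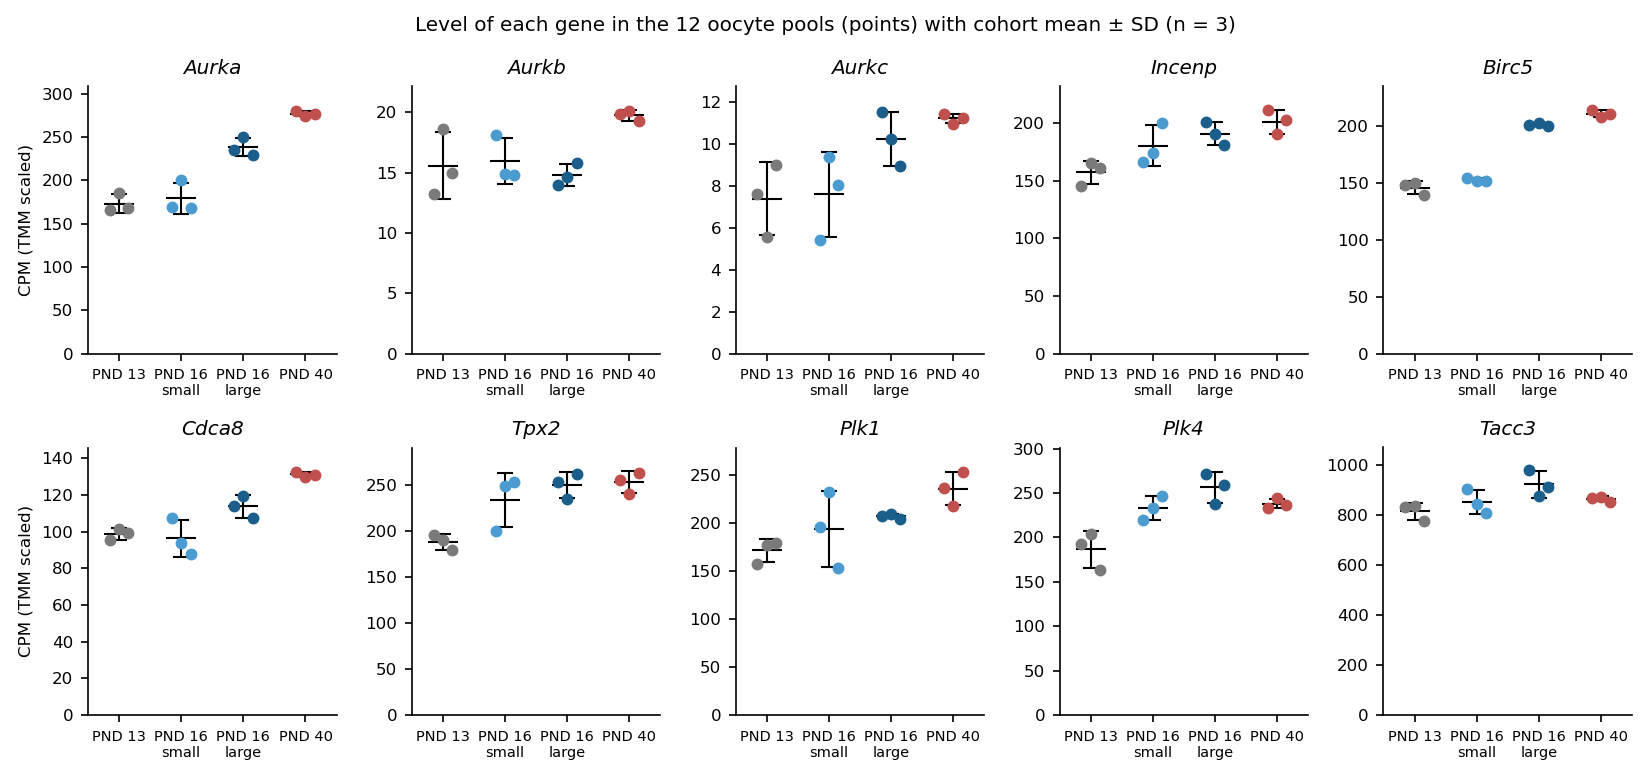
Level of each of the 10 genes in CPM (vertical axes from 0) in every pool (points) of the 4 cohorts (horizontal axes), with cohort mean and SD (bars, n = 3). For Aurka, Birc5 and Cdca8 all PND 16 large and PND 40 pools sit above all PND 13 and PND 16 small pools, whereas Tacc3 sits between 776 and 980 CPM throughout.

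As the 3 Aurora kinases are paralogs, their balance within a pool was also examined, as the share of each in the sum of the 3 levels per exon length, a quantity that does not depend on the scaling between pools. Aurka made up 88.8 ± 0.396% of the sum in competent pools and 87.1 ± 0.807% in non-competent pools (n = 6 each), a difference of 1.66 percentage points (two-sided exact permutation p = 0.00216, adjusted p = 0.00325 over the 3 shares). The Aurkb share was 5.08 ± 0.473% in competent and 6.72 ± 0.934% in non-competent pools, a difference of -1.63 percentage points with the same exact permutation p, the smallest that the 924 ways of dividing 12 pools can give. Competent and non-competent pools did not overlap in either share, although for Aurkb the margin was narrow, with a highest competent value of 5.58% and a lowest non-competent value of 5.59%. The Aurkc share was 6.14 ± 0.517% and 6.17 ± 1.34%, a difference of -0.0257 percentage points (exact permutation p = 0.972). Because the 3 shares of a pool add up to the whole, the Aurka and Aurkb differences are not independent results. The test also divided the 12 pools freely, although competence was assigned by whole cohort. Its p therefore measures the spread between pools, not between cohorts. The level of Aurkb itself was not lower in competent pools, with a mean of 17.3 CPM beside 15.8 CPM in non-competent pools. With length counted only as 50-base stretches that no other gene shares, a setting chosen after seeing the data, the Aurka difference was 1.49 percentage points and no longer passed (exact permutation test, adjusted p = 0.117), and that of Aurkb was -1.46 (adjusted p = 0.013).

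**Figure D2:**
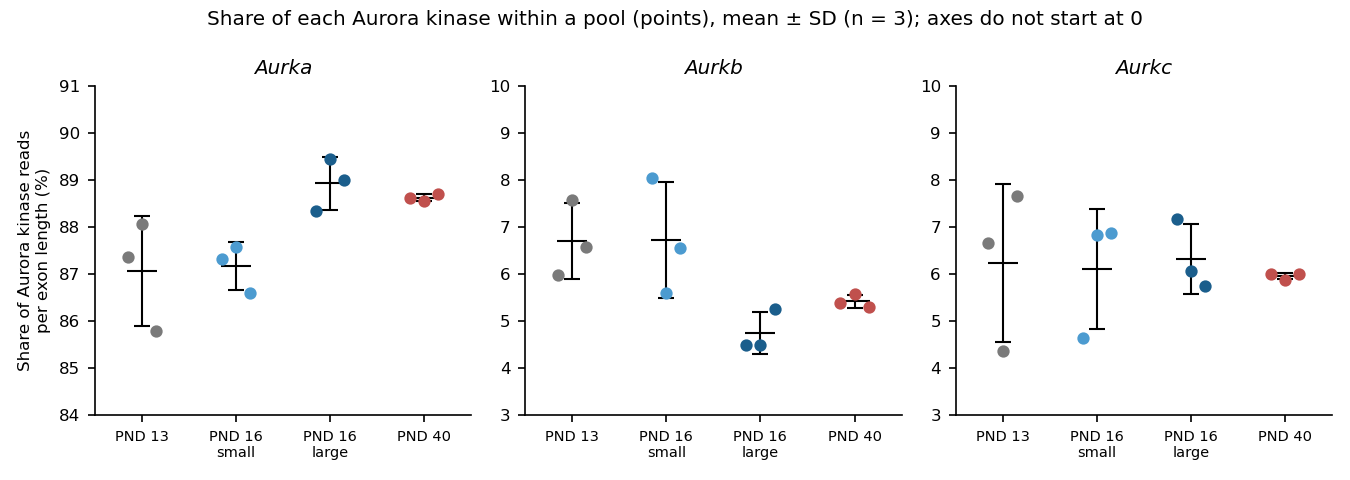
Share of each Aurora kinase in the sum of the 3 kinases per exon length, in percent (vertical axes, which do not start at 0), in every pool (points) by cohort, with mean and SD (bars, n = 3). The Aurka share is above 88.3% and the Aurkb share at most 5.58% in every PND 16 large and PND 40 pool, while the Aurkc shares of the cohorts overlap.

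Birc5 (chr11:117849251-117855743, plus strand), which encodes survivin, was higher in every competent pool than in any non-competent one. Its level was 149, 150.3 and 139 CPM in the PND 13 pools and 154, 152 and 152 CPM in PND 16 small. It was 201, 203 and 200.4 CPM in PND 16 large and 214, 208 and 211 CPM at PND 40. The highest non-competent pool was at 154 CPM and the lowest competent pool at 200.4 CPM. Birc5 was higher in competent oocytes by 0.47 on the log2 scale (SE 0.0483, adjusted p = 2.68e-05) and at PND 40 relative to PND 13 by 0.53 (SE 0.0572, adjusted p = 4.43e-05). Between mice of 1 age, PND 16 large exceeded PND 16 small by 0.40 (SE 0.0572, adjusted p = 0.00212). PND 40 and PND 16 large differed by 0.068, with an interval of -0.043 to 0.18 (adjusted p = 0.536).

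Cdca8 (chr4:124918465-124939311, minus strand), which encodes borealin, was at 95.3, 101 and 99.5 CPM in the PND 13 pools and at 107, 93.9 and 87.9 CPM in PND 16 small. It was at 114, 120 and 108 CPM in PND 16 large and at 133, 130 and 131 CPM at PND 40. Competent and non-competent pools did not overlap here either, although the nearest pools were those of PND 16 small replicate 1 (107.3 CPM) and PND 16 large replicate 3 (107.5 CPM). Cdca8 was higher at PND 40 than at PND 13 by 0.41 on the log2 scale (adjusted p = 0.00168), higher at PND 40 than in PND 16 small by 0.44 (adjusted p = 0.00115) and higher in competent oocytes by 0.33 (adjusted p = 0.00284). Part of its exonic sequence lies opposite exons of 9930104L06Rik. Whether the reads were counted by strand is not given in the sources used here.

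Incenp (chr19:9872296-9899551, minus strand), the scaffold of the complex, was at 145, 165 and 161 CPM in the PND 13 pools, at 166, 174 and 200.3 CPM in PND 16 small, at 201, 190.1 and 181 CPM in PND 16 large and at 211, 190.1 and 202 CPM at PND 40. The PND 13 pools lay below all others, and the remaining cohorts overlapped. Incenp was higher than at PND 13 by 0.36 on the log2 scale at PND 40 (adjusted p = 0.00525) and by 0.28 in PND 16 large (adjusted p = 0.0245). The competent vs. non-competent difference was 0.22 (adjusted p = 0.0328).

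Tpx2 (chr2:152847964-152895321, plus strand), the activator of Aurora-A, was at 196, 191 and 179 CPM in the PND 13 pools and at 200.1, 249 and 254 CPM in PND 16 small. It was at 253, 235 and 263 CPM in PND 16 large and at 256, 241 and 264 CPM at PND 40. The PND 13 pools lay lowest, and 2 of the 3 PND 16 small pools lay within the range of the competent pools. Relative to PND 13, Tpx2 was higher by 0.43 on the log2 scale at PND 40 (adjusted p = 0.00246) and by 0.41 in PND 16 large (adjusted p = 0.00501). Tacc3 (chr5:33658128-33678995, plus strand) had the highest levels of the set, with 776 to 834 CPM at PND 13 and 807 to 902 CPM in the PND 16 small pools. The PND 16 large pools had 876 to 980 CPM and those of PND 40 had 852 to 871 CPM. It passed edgeR's test in no comparison. Its largest difference was that of PND 16 large vs. PND 13, at 0.18 on the log2 scale with an interval of 0.051 to 0.31 (adjusted p = 0.0603), which passed with DESeq2 (adjusted p = 0.0165), with limma (adjusted p = 0.0498) and with edgeR without PND 16 small replicate 1 (adjusted p = 0.0422). PND 40 vs. PND 13 gave 0.086 with an interval of -0.043 to 0.22 (adjusted p = 0.34), and competent vs. non-competent oocytes gave 0.10 with an interval of -0.0070 to 0.21 (adjusted p = 0.179). Tacc3 shares exonic sequence with Tmem129 on the opposite strand.

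Plk1 (chr7:122159439-122169873, plus strand), the Polo kinase of spindle poles and kinetochores, was at 157, 177 and 179 CPM in the PND 13 pools and at 196, 232 and 153 CPM in PND 16 small. It was at 207, 209 and 204 CPM in PND 16 large and at 236, 218 and 252 CPM at PND 40. PND 16 small spanned nearly the whole range, from below every PND 13 pool to above 1 PND 40 pool. Plk1 was higher at PND 40 than at PND 13 by 0.46 on the log2 scale (SE 0.118, adjusted p = 0.00935) and higher in competent oocytes by 0.28 (SE 0.0952, adjusted p = 0.0386). The competent difference did not pass in 8 of the 12 fits without 1 pool. Of its 50-base transcript stretches, 6.56% were shared with the pseudogene Plk-ps1, and Gm44985 lies on the opposite strand.

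Plk4 (chr3:40800019-40816883, plus strand), the kinase that starts centriole duplication in dividing somatic cells, was at 193, 204 and 163 CPM in the PND 13 pools and at 220, 233 and 246 CPM in PND 16 small. It was at 272, 238 and 259 CPM in PND 16 large and at 234, 244 and 237 CPM at PND 40. As for Tpx2 and Incenp, the PND 13 pools lay below all others. Plk4 was higher than at PND 13 by 0.46 on the log2 scale in PND 16 large (adjusted p = 0.00217) and by 0.35 at PND 40 (adjusted p = 0.00628). From PND 16 large to PND 40 its difference was -0.11, with an interval of -0.27 to 0.059 (adjusted p = 0.509).

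To compare the genes with each other, CPM were divided by exon length in kb. On this scale the mean over 12 pools was 243 CPM per kb for Tacc3, 91.7 for Plk1, 85.7 for Aurka, 52.3 for Birc5 and 49.5 for Tpx2. It was 42.1 CPM per kb for Incenp, 33.3 for Plk4, 21.2 for Cdca8, 5.97 for Aurkc and 5.60 for Aurkb. Neighbors in this order kept it in all 12 pools except Plk1 and Aurka (9 of 12 pools), Birc5 and Tpx2 (10 of 12) and Aurkc and Aurkb (10 of 12), which are not separated by their levels. Per coding length, the means over 12 pools were highest for Tacc3 (447 CPM per kb) and Birc5 (401), with Tacc3 above Birc5 in 8 of 12 pools and below it in the PND 40 means (448 and 476 CPM per kb), and Aurkb (15.9) then exceeded Aurkc (9.20) in all 12 pools. The order of these 2 kinases therefore depended on the length used.

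Counted over the set, PND 40 vs. PND 13 gave 1 differentially expressed gene of 10, Aurka, where this name requires a 1.5-fold or larger change besides an adjusted p no higher than 0.05. Among all genes tested 18.9% met these criteria by edgeR, and the share was not counted for other tools or with a pool left out. With DESeq2 or limma the count was 2, with Aurkc added (log2 fold change 0.59, adjusted p = 0.0429, and 0.62, adjusted p = 0.0472). Aurkc was also added by edgeR without PND 13 replicate 3 (0.77, adjusted p = 0.0415) or without PND 16 small replicate 1 (0.60, adjusted p = 0.0228). When the adjusted p alone was asked for, 7 genes were higher and none was lower at PND 40, relative to 16.3% of all genes higher. All 10 genes had their 3 PND 40 pools above their 3 PND 13 pools, which was the case for 26.3% of all genes tested. The median log2 fold change of the 10 was 0.42, relative to 0.00443 for all genes. As the 10 genes were chosen with earlier results of these data known, these and the following shares are a description.

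Competent vs. non-competent oocytes gave 0 differentially expressed genes of 10 by edgeR, DESeq2 and limma, relative to 15% of all genes tested by edgeR. At an unadjusted p of at most 0.05 there were 8 of 10, and the share of all genes at that threshold was not counted. Without the fold criterion edgeR gave 7 genes, all higher in competent oocytes, relative to 14.2% of all genes. DESeq2 and limma each gave 8, but the share of all genes was not counted for either tool. The changes were therefore below 1.5-fold in each gene, from 1.16-fold for Incenp to 1.46-fold for Aurka among the 7. Pools did not overlap for Aurka, Birc5 and Cdca8, 3 of 10 genes, relative to 6.89% of all genes with competent pools above non-competent ones. The count of 7 fell to 3 without PND 16 large replicate 1 and to 4 without any 1 of the PND 13 pools or without PND 40 replicate 1 or 3, and Aurka, Birc5 and Cdca8 were the 3 that passed without PND 16 large replicate 1. Among the 7, Tpx2 and Plk1 each failed to pass in 8 of the 12 fits without 1 pool, and Incenp in 7 of 12. The median log2 fold change was 0.27, relative to -0.00458 for all genes.

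**Figure D3:**
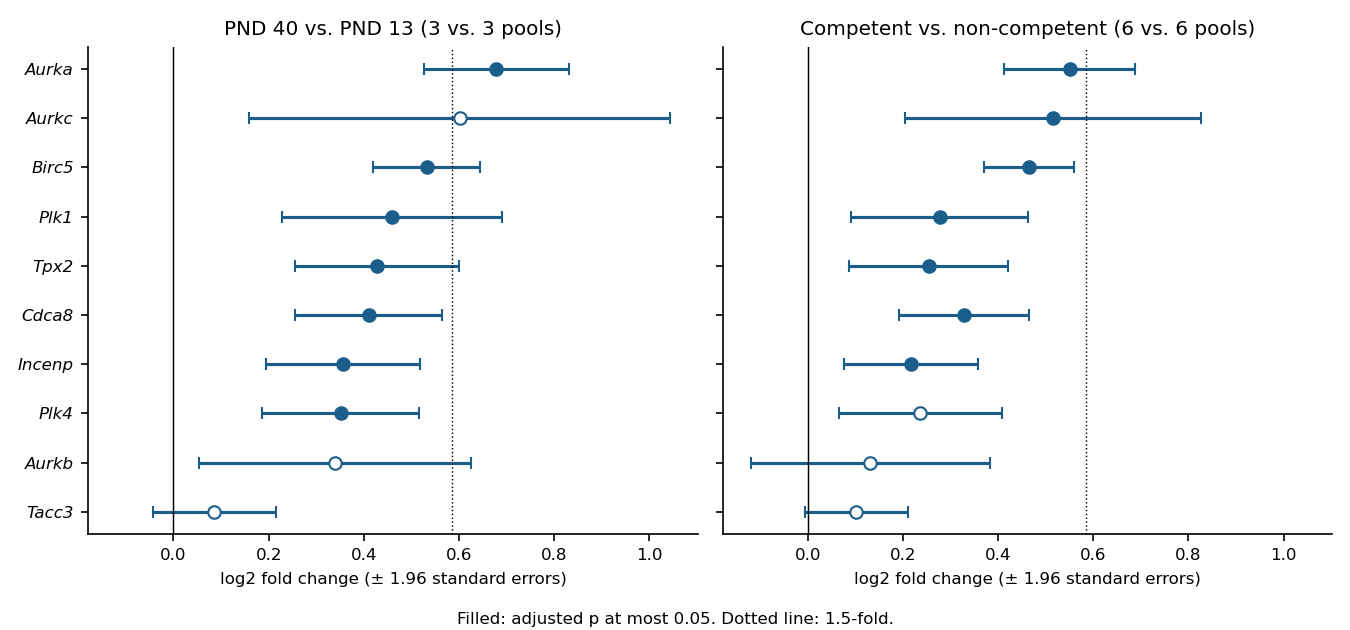
Log2 fold change (horizontal axes) of each gene in PND 40 vs. PND 13 and in competent vs. non-competent oocytes, with bars for approximate 95% intervals. Filled points have an adjusted p of at most 0.05 and the dotted line marks 1.5-fold, all points lie above 0, and of the filled points only that of Aurka in PND 40 vs. PND 13, at 0.68, lies beyond the dotted line.

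PND 16 large vs. PND 13 gave 0 differentially expressed genes of 10 by edgeR, DESeq2 and limma, relative to 13.3% of all genes by edgeR. An unadjusted p of at most 0.05 was seen for 8 of 10, with the share of all genes not counted. Without the fold criterion 5 genes were higher (Aurka, Birc5, Plk4, Tpx2 and Incenp), relative to 12.6% of all genes, and pools did not overlap for 8, relative to 22.6%. In PND 40 vs. PND 16 small 1 gene, Aurka, was differentially expressed, relative to 17.2% of all genes, and without the fold criterion Aurka, Birc5 and Cdca8 were higher, relative to 14.5%. Pools did not overlap for 5 genes there, relative to 23.4%. Aurka in this comparison came close to the fold criterion, and without PND 16 small replicate 3 no gene met it. Without PND 16 small replicate 2 the count was 2, with Aurkc at 0.74 on the log2 scale (adjusted p = 0.0367).

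Mice of 1 age but unequal weight were compared as PND 16 large vs. PND 16 small. This gave 0 differentially expressed genes of 10 by all 3 tools, relative to 6.19% of all genes by edgeR. An unadjusted p of at most 0.05 was seen for 3 of 10, with the share of all genes not counted. Without the fold criterion Aurka and Birc5 were higher in PND 16 large, relative to 4.98% of all genes, and pools did not overlap for these and Cdca8, 3 genes, relative to 16.2%. For Incenp, Tpx2, Plk1 and Plk4 the differences were 0.083 to 0.14 on the log2 scale, with intervals that included 0. Tpx2 and Plk4 lay instead above PND 13 already in PND 16 small, by 0.31 (adjusted p = 0.0803) and 0.32 (adjusted p = 0.0718) on the log2 scale.

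The comparison of PND 16 small with PND 13 had 0 differentially expressed genes of 10 by all 3 tools, relative to 0.373% of all genes by edgeR. An unadjusted p of at most 0.05 was seen for 3, with the share of all genes not counted. Without the fold criterion edgeR gave 0, relative to 0.689% of all genes higher. Limma also gave 0 and DESeq2 gave 2, Tpx2 and Plk4, but the share of all genes was not counted for either tool. Pools did not overlap for 4 genes, relative to 10%. Leaving out PND 16 small replicate 1 gave the same 2 genes by edgeR. PND 40 vs. PND 16 large also gave 0 by all 3 tools, relative to 3.66% of all genes by edgeR. Without the fold criterion edgeR gave 0, relative to 3.59% of all genes higher. An unadjusted p of at most 0.05 was seen for 3, namely Aurka, Aurkb and Cdca8, with the share of all genes not counted. Fitted on these 2 cohorts alone, edgeR gave 4 genes past the adjusted p, with Plk1 besides these 3. The share of all genes past it in that fit was not counted, so the 4 have no background. Pools did not overlap for 6 of the 10 genes in this comparison, 5 higher at PND 40 (20.8% of all genes) and Tacc3 lower (18.5%).

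Since the granulosa signal was uneven, the comparisons were repeated without its 3 highest pools, a setting chosen after seeing the data, which left PND 13 with 1 pool that is assumed to vary like the other groups. Aurka was then higher at PND 40 than at PND 13 by 0.58 on the log2 scale (adjusted p = 0.00282) and Birc5 by 0.49 (adjusted p = 0.00409), and with Aurkc 3 genes passed the test in place of 7. Aurka was then just below the fold criterion, which Aurkc met (1.01, adjusted p = 0.0364). In competent vs. non-competent oocytes 5 genes passed in place of 7, with Aurka higher by 0.57 (adjusted p = 0.00119), Birc5 by 0.44 (adjusted p = 0.000788) and Cdca8 by 0.31 (adjusted p = 0.039), while Aurkc reached 0.77 (adjusted p = 0.0126) and alone met the fold criterion. Across the 12 pools the correlation of a gene's log2 CPM with the granulosa sum was between -0.65 (Aurkb) and 0.081 (Aurkc). The part of granulosa RNA in the differences was otherwise not tested.

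The genes also differed in how they varied together. Pearson's correlation of log2 CPM over the 12 pools, which share cohorts and are given as a description, was -0.00186 to 0.955 over the 45 pairs, with a median of 0.590. The highest values joined Aurka with Birc5 (0.955), Aurka with Cdca8 (0.897), Tpx2 with Plk4 (0.883) and Birc5 with Cdca8 (0.874). Incenp, the scaffold of the passenger complex, was closest to Tpx2 (0.830). Aurkb and Aurkc, which bind the same subunits, had the lowest correlation of all pairs (-0.00186), with Aurkc counted at 5.39 to 11.5 CPM. Of 11938 genes with enough reads, the nearest to Aurka was Copz1 (0.977), the nearest to Aurkb was the replication licensing gene Cdc6 (0.943), the nearest to Birc5 was Osbpl9 (0.982) and the nearest to Cdca8 was Vps37b (0.984). For Aurkc, Incenp, Tpx2, Plk1, Plk4 and Tacc3 the nearest genes were Grid1, Zfp451, Brd1, Cc2d1a, Hmgcll1 and Mrpl40, at 0.931 to 0.979.

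**Figure D4:**
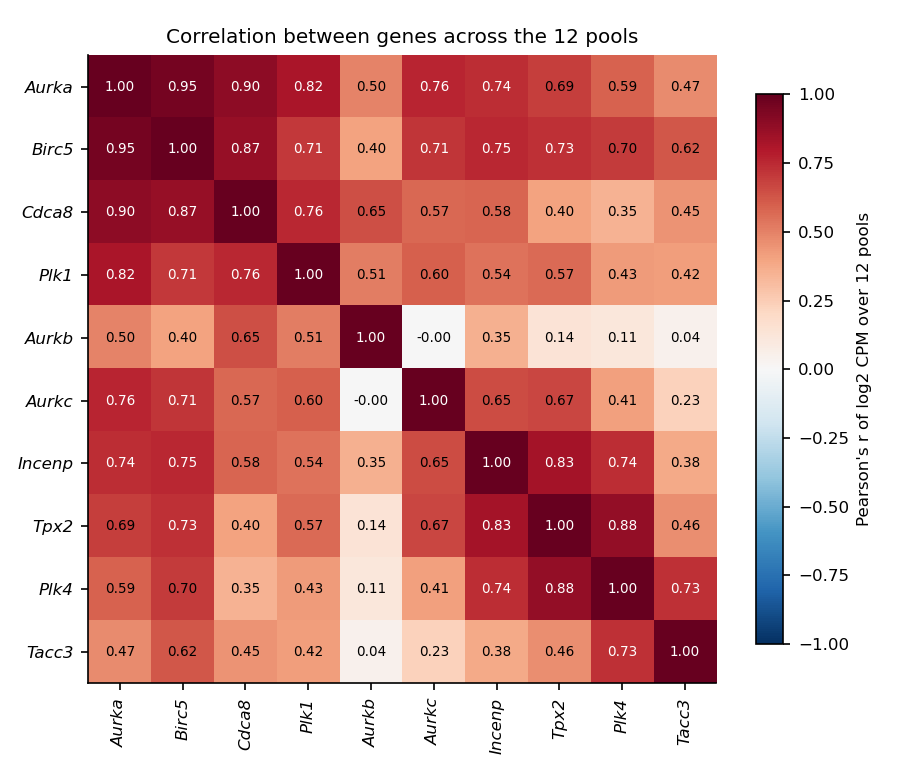
Pearson's correlation of log2 CPM over the 12 pools between each pair of the 10 genes, as a color scale from -1 to 1 with the value in each cell. The 4 highest values join Aurka, Birc5 and Cdca8 with each other and Tpx2 with Plk4, Incenp is at 0.755 with Birc5 and at 0.741 with Plk4, so that the genes do not fall into separate blocks, and Aurkb and Aurkc have the lowest value.

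Other genes of these pathways were counted in 3 lists, which were also chosen with earlier results of these data known. Of 15 genes that recruit the passenger complex or act with it at kinetochores and the midzone, 5 were higher at PND 40 than at PND 13 at an adjusted p of at most 0.05 and none was lower, relative to 16.3% of all genes higher and 16.7% lower, with a median log2 fold change of 0.23 beside 0.00443 for all genes. Relative to PND 16 small, 6 of the 15 were higher at PND 40 and 4 lower, beside 14.5% and 15.7% of all genes. Bub1b, which encodes the checkpoint protein BubR1, had the largest change, from 1239 ± 149 CPM at PND 13 to 2299 ± 112 CPM at PND 40 (log2 fold change 0.89, adjusted p = 2.6e-05). The midzone genes Kif23 and Racgap1, which encode the centralspindlin subunits, were higher in PND 16 large than at PND 13 by 0.68 (adjusted p = 0.000211) and 0.61 (adjusted p = 0.000509) on the log2 scale. Cenpa, the histone variant of centromeres, was higher in PND 16 large than in PND 16 small by 0.61 (adjusted p = 0.0144).

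Of 32 genes of acentriolar spindle assembly, 6 were higher and 3 lower at PND 40 than at PND 13, beside 16.3% and 16.7% of all genes, with a median log2 fold change of 0.050. Relative to PND 16 small, 1 was higher at PND 40 and 9 were lower, beside 14.5% and 15.7% of all genes. The 2 that also met the fold criterion in PND 40 vs. PND 13 both fell. Ran, the GTPase that guides microtubule assembly around chromosomes, fell from 21.7 ± 3.79 to 8.98 ± 0.702 CPM (log2 fold change -1.27, adjusted p = 9.97e-05), and the augmin subunit Haus2 fell from 4.19 ± 0.492 to 1.33 ± 0.420 CPM (-1.66, adjusted p = 0.00163). Haus7, another augmin subunit, was instead higher in PND 16 large than at PND 13 by 1.18 (adjusted p = 0.014). Kpna2, an importin alpha that binds Tpx2, was at 0.0948 to 1.25 CPM in the PND 16 small pools, at 25.6 to 28.1 CPM in PND 16 large and at 20.6 to 23.8 CPM at PND 40. The PND 13 pools covered nearly that whole range, from 0.156 to 20.5 CPM. Kpna2 was higher in PND 16 large than in PND 16 small by 5.74 on the log2 scale (SE 1.38, adjusted p = 0.0317).

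Of 20 tested Polo regulators, targets and centriole genes, 6 were higher and none lower at PND 40 than at PND 13 at an adjusted p of at most 0.05, relative to 16.3% of all genes higher and 16.7% lower, with a median log2 fold change of 0.16 and no differentially expressed gene. Bora, the cofactor through which Aurora-A activates Plk1, was the only gene of this list to meet the fold criterion and the adjusted p together in any of the 7 comparisons by edgeR. It was at 45.9 ± 7.78 CPM at PND 13, 68.3 ± 12.3 CPM in PND 16 small, 47.2 ± 1.94 CPM in PND 16 large and, at PND 40, 43.3 ± 3.19 CPM, and was lower at PND 40 than in PND 16 small by 1.58-fold (log2 fold change -0.66, adjusted p = 0.00342).

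**Figure D5:**
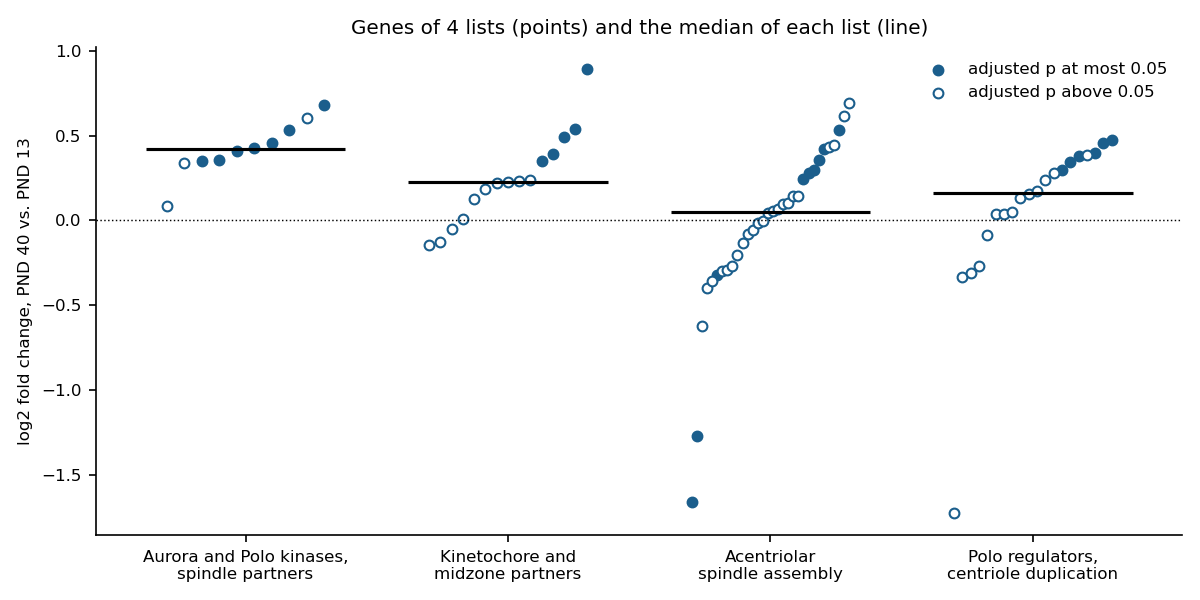
Log2 fold change in PND 40 vs. PND 13 (vertical axis) of the genes of 4 lists (points, filled at an adjusted p of at most 0.05) with the median of each list (line). The medians are 0.42 for the Aurora and Polo set, 0.23 for kinetochore and midzone partners, 0.050 for acentriolar spindle assembly and 0.16 for Polo regulators.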

How the data were processed

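RNA-Seq was performed by the authors on 12 pools of oocytes, from which cumulus cells had been removed by pipetting according to the general methods, with directional libraries after depletion of ribosomal RNA and reads of 50 nt. The authors deposited raw counts of reads for 24562 genes and a table of log2 values. Within a pool, the ratio between the deposited log2 table (after undoing the log2 and its pseudocount) and the counts was constant to 7.04e-12%, so only the counts were tested. The submitters' processing notes name FastQC, STAR, HTSeq, DESeq2, DESeq, HOMER and the build mm10 without versions, whereas the paper names the Rosalind platform. How multi-mapping reads and strand were counted is not given in the sources used here. Pools were counted without molecular identifiers, so the spread between pools was used as the error.

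Groups and replicate numbers were taken from the sample labels, and the competent and non-competent groups from the cohorts that the study joined. Oocytes of 3 mice per cohort were used for its 3 pools, which the paper calls independent. The labels do not say which mice entered which pool, so p-values measure the spread between these pools. Genes were kept by filterByExpr (minimum count 10), scaled by TMM and tested in R 4.3.3 with edgeR 4.0.16 by the robust quasi-likelihood test. A model of the 4 cohorts gave 6 pairwise comparisons, and a model of 2 groups of 6 pools gave the competent vs. non-competent comparison. In the model of 2 groups, pools of 1 cohort counted as separate replicates of competence. P-values were adjusted over all 13943 genes tested by the Benjamini-Hochberg procedure. A gene "passed the test" at an adjusted p of at most 0.05, and was differentially expressed if it also changed at least 1.5-fold. Standard errors were approximated from the size of the log2 fold change and the root of its F statistic, which also gave approximate 95% intervals. For correlations, log2 CPM were computed with 2 as the prior count.

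Alternatives were DESeq2 1.42.0, limma 3.58.1 on log2 CPM, RLE, upper quartile and total count scaling, a looser and a stricter filter, only the cohorts compared, no fold criterion, leaving out each pool and the replicate number as a block. Exact tests, sequence counts and figures used Python 3.11.15 with scipy 1.17.1 and matplotlib 3.10.9. The models were tested on simulated data. Lengths, coordinates and shared 50-base stretches came from GENCODE M21 (GRCm38, which is mm10) and promoter windows from RefSeq (GRCm38.p6), of which 1 is not reported here. All 10 genes are named. From each of the 3 other lists, up to 3 differentially expressed genes with the largest change were named per comparison. Genes nearest in pattern were those with the highest Pearson correlation over the 12 pools. The 10 genes and the lists were chosen with earlier results of these data known.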

Additional observations from a re-analysis of the deposited data

How the results depend on the processing

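Of the log2 fold changes of the 10 genes in the 7 comparisons under alternative settings, 1438 of 1540 kept their direction and their side of the adjusted p threshold, and none of the reversals reached an adjusted p under 0.475. The 1438 include differences that passed under neither setting, and fits without a pool of a cohort that was not compared. Without the fold criterion the differentially expressed genes were 5 in PND 16 large vs. PND 13, 7 in PND 40 vs. PND 13, 2 in PND 16 large vs. PND 16 small, 3 in PND 40 vs. PND 16 small and 7 in the competent comparison. DESeq2 and limma each gave 2 in PND 40 vs. PND 13, and DESeq2 gave 2 genes past the adjusted p alone in PND 16 small vs. PND 13. Fitting only the cohorts compared gave 4 past the adjusted p in PND 40 vs. PND 16 large (Aurka, Aurkb, Cdca8 and Plk1). Without the 3 pools of highest granulosa signal, 1 of 2 settings chosen after seeing the data (the other counted length in unshared 50-base stretches), the genes past the adjusted p were 2 in PND 16 large vs. PND 13, 3 in PND 40 vs. PND 13 and 5 in PND 40 vs. PND 16 small, and the differentially expressed genes were 2 in PND 40 vs. PND 16 small and 1 in competent vs. non-competent oocytes. Leaving out 1 pool at a time, the differentially expressed genes were 1 to 2 in PND 40 vs. PND 13, 0 to 2 in PND 40 vs. PND 16 small and 0 in the others. Genes past the adjusted p were then 0 to 2 in PND 16 small vs. PND 13, 4 to 7 in PND 16 large vs. PND 13, 7 to 8 in PND 40 vs. PND 13, 2 to 3 in PND 16 large vs. PND 16 small, 3 to 5 in PND 40 vs. PND 16 small, 0 in PND 40 vs. PND 16 large and 3 to 8 in competent vs. non-competent oocytes. The share differences ranged from 1.39 to 1.84 percentage points for Aurka, from -1.86 to -1.37 for Aurkb and from -0.385 to 0.272 for Aurkc. The Aurka share difference was 1.49 per unshared stretch (adjusted p = 0.117), and that of Aurkc changed sign per coding length (0.00636) and without the pools of highest granulosa signal (0.853). With total counts as the only scaling, the median over all genes became -0.12 for PND 16 small vs. PND 13, and -0.13 for PND 16 large vs. PND 13. In PND 16 small vs. PND 13 it gave -0.048 for Aurka, -0.064 for Aurkb, -0.062 for Aurkc, -0.032 for Birc5 and -0.033 for Tacc3, and leaving out the pools of highest granulosa signal gave -0.14 for Aurka, -0.18 for Aurkb and -0.024 for Plk1. Leaving out 1 pool at a time, log2 fold changes that changed sign ranged in PND 16 small vs. PND 13 from -0.055 to 0.088 for Aurka, from -0.075 to 0.16 for Aurkb, from -0.16 to 0.24 for Aurkc and from -0.12 to 0.015 for Cdca8. They ranged from -0.18 to 0.055 for Aurkb in PND 16 large vs. PND 13, from -0.0021 to 0.16 for Tpx2 and from -0.049 to 0.25 for Plk1 in PND 16 large vs. PND 16 small. In PND 40 vs. PND 16 small they ranged from -0.0065 to 0.065 for Plk4 and from -0.022 to 0.070 for Tacc3, and in PND 40 vs. PND 16 large from -0.035 to 0.055 for Tpx2. The cause of these changes was not tested. Shares of all genes were counted only for the main edgeR fits, so gene counts from other tools, fits or sets of pools have no background.

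Replicate numbers are shared between the cohorts, and same-numbered pools deviated from their cohort means with correlations of -0.442 to 0.0753. Pools of unlike number were not compared, so whether same-numbered pools share a batch cannot be told from these values. With the replicate number as a block, 4 genes in place of 7 passed the adjusted p in the competent comparison, whereas 5 in PND 16 large vs. PND 13, 7 in PND 40 vs. PND 13, 2 in PND 16 large vs. PND 16 small and 3 in PND 40 vs. PND 16 small passed, the same counts as without it. Pools of 3 per cohort limit what was detectable, and the widest intervals were those of Aurkc and Aurkb.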
